A study of Homo sapiens with 9 samples.

Results

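The Notch pathway was followed here through 10 genes, the receptor genes NOTCH1, NOTCH2 and NOTCH3, the ligand genes JAG1 and JAG2, and the target genes HES1, HES4, HEY1, HEY2 and HEYL. They were taken by symbol from a table of read counts for 61209 genes, and all 10 symbols were found. The cells were GIST-T1, a human gastrointestinal stromal tumor line that carries the deletion del560-79 in exon 11 of KIT and is sensitive to imatinib. The siERRα cells had received an siRNA against ERRα, the orphan nuclear receptor that ESRRA encodes. The siNC + imatinib cells had received a non-target siRNA and 50 nM imatinib, an inhibitor of the KIT kinase, and the siNC cells the non-target siRNA alone. All 3 groups were transfected, harvested at 48 h and sequenced as polyA RNA, with 3 libraries per group. They share 1 cell line, and no label or method states whether each library was a culture of its own, so the p-values below reflect the scatter among these libraries alone. In bulk RNA, fewer cells with a transcript and less of it per cell cannot be told apart.

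Notch receptors are single-pass membrane proteins that bind Jagged and Delta ligands on neighboring cells. Binding lets ADAM proteases and then γ-secretase cut the receptor, and the freed intracellular domain joins the DNA-binding protein RBPJ and a Mastermind coactivator in the nucleus. HES and HEY genes, which encode basic helix-loop-helix repressors, are the classical targets of this complex, and without it RBPJ holds corepressors at the same sites. The pathway is known for its roles in vessels, smooth muscle and epithelial-mesenchymal transition.

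The core of the RBPJ site, TGGGAA, was searched on both strands of promoter windows from RefSeq (GRCh38.p14), each from 250 bases before to 50 bases after a start site. A window was at hand for 9 of the 10 genes, and the core was present in all 4 target genes among them and in none of the 5 receptor and ligand genes. HES1 held 2 copies in the same orientation at −84 and −70, counted at the first base from the start site, and HES4 held 1 at −76. HEYL held 2 in opposite orientations at −178 and −99, as did HEY2 at −213 and −3. Of 35116 windows, 24.0% held at least 1 copy and 3.80% held 2 or more. The usual binding motif of ERR proteins, AAGGTCA, was in none of the 9 windows and in 3.92% of all windows. These matches describe the letters only. The 4 target windows are shown 5′ to 3′ on the strand of the gene, with the core in capitals (TTCCCA where it lies on the other strand). HES1 was taken from chr3:194135898-194136197 (plus strand), HES4 from chr1:1000048-1000347 (minus), HEYL from chr1:39639594-39639893 (minus) and HEY2 from chr6:125749382-125749681 (plus).
HES1: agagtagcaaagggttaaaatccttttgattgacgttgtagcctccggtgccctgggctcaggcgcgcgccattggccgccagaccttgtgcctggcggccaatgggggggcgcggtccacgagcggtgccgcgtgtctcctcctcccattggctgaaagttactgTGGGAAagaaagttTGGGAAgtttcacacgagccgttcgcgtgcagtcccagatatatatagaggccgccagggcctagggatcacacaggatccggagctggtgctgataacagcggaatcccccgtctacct
HES4: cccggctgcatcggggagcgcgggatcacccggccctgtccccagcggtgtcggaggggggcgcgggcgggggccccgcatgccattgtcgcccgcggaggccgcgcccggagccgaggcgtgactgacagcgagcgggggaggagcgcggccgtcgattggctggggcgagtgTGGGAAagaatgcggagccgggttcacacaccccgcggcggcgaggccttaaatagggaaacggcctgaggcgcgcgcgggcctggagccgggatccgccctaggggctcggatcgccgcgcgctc
HEYL: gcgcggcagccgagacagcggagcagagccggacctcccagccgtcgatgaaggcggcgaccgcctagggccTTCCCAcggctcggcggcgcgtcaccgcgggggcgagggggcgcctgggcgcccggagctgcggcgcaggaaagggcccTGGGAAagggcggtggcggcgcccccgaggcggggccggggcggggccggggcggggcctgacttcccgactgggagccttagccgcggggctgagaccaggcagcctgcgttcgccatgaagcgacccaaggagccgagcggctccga
HEY2: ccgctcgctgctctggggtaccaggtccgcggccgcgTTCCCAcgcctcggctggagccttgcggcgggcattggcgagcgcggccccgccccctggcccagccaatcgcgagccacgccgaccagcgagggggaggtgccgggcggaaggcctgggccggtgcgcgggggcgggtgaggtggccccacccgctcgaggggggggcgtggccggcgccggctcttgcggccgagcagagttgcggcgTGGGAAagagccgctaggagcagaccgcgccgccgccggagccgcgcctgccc

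**Figure D1:**
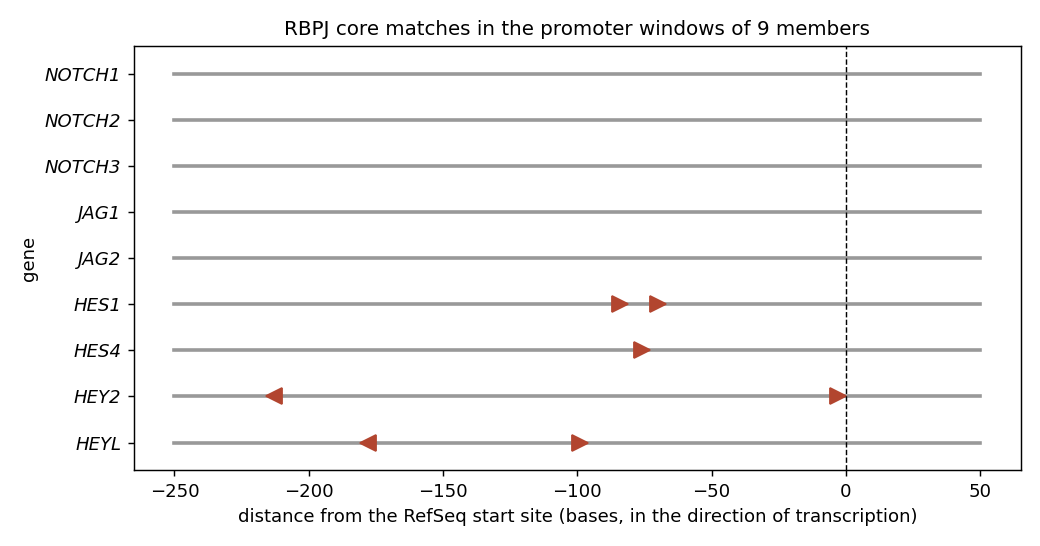
Matches to the RBPJ core (triangles, pointing right for the strand of the gene and left for the other strand) in the promoter windows of 9 genes, plotted by distance in bases from the RefSeq start site (dashed line). The 7 matches lie in HES1, HES4, HEY2 and HEYL, and the 5 receptor and ligand windows hold none.

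The 3′ UTR of NOTCH2 holds another short sequence, the 7 bases ATGTTCT. They were picked after the values of these libraries were seen, so the shares below are a description. The 3′ UTR of the canonical NOTCH2 transcript in GENCODE 44 (3753 bases) held 2 copies, at chr1:119913956-119913962 and chr1:119915173-119915179 of GRCh38 on the minus strand. The 3′ UTRs of the other 8 genes that were tested, NOTCH3 and JAG2 among them, held none. Of 12741 protein-coding genes tested with a 3′ UTR, 19.0% held at least 1 copy. The share was 37.2% of the 1968 called lower in siERRα against siNC, 12.3% of the 1778 called higher and 16.3% of the 8995 not called, with median 3′ UTRs of 1752, 1734 and 1247 bases. The sequence of the siRNA against ERRα is not given in the sources used here, so whether these 7 bases match its seed, the part through which an siRNA can also lower other transcripts, was not tested, and neither was the part of the 2 copies in the NOTCH2 value. The 2 sites are shown with 8 bases on either side and the 7 bases in capitals.
NOTCH2 site 1: tacccagtATGTTCTcactgaag
NOTCH2 site 2: aagagaagATGTTCTtattcaga

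The libraries held 37527236 to 49363002 counts. Levels are given in CPM, the usual scaling of counts to a common library total, here after TMM normalization, and groups were compared with the quasi-likelihood test of edgeR over 16976 genes with enough counts, all 9 libraries in 1 fit. A gene was called lower or higher at a Benjamini-Hochberg adjusted p under 0.05. ESRRA stood at 1.17 ± 0.356 CPM in siERRα, 32.7 ± 2.69 CPM in siNC + imatinib and 42.1 ± 2.24 CPM in siNC (SD, n = 3 each). Mitochondrially encoded genes took 0.943 to 1.03% of counts in siERRα, 1.48 to 1.54% in siNC + imatinib and 0.846 to 0.989% in siNC, and the part of the higher share in the imatinib values was not tested. All 6 GIST markers examined (KIT, ANO1, ETV1, PRKCQ, CD34 and FOXF1) were present and summed to 3768 to 3904, 3650 to 3853 and 3516 to 3619 CPM in these groups. Within this sum KIT, ANO1, ETV1 and PRKCQ were called higher with imatinib than in siNC (log2 fold changes of 0.23 to 0.73) and CD34 (−0.37) and FOXF1 (−0.15) lower, while ETV1, PRKCQ and FOXF1 were called higher in siERRα (0.27 to 0.32). The 5 endothelial markers summed to 1.66 to 2.03 CPM in siERRα, 2.24 to 3.39 CPM in siNC + imatinib and 1.75 to 2.10 CPM in siNC, and PECAM1 had 0 to 3 counts per library. The 5 leukocyte and the 5 epithelial markers each summed to at most 1.13 CPM in a library, with PTPRC at 0 in 8 of the 9 libraries and KRT5 at 0 in all. The 5 smooth muscle markers summed to 324 to 344 CPM in siERRα, 593 to 638 CPM in siNC + imatinib and 495 to 524 CPM in siNC, nearly all of it ACTA2 and TAGLN, with DES at 0 to 3 counts and MYH11 at 4 to 17 counts. This sum moved in the same directions as NOTCH2, NOTCH3 and JAG2 below, and its part in their values was not tested.

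After ERRα knockdown, NOTCH2, NOTCH3 and JAG2 were lower and JAG1 was higher than in siNC. With imatinib the same 4 genes were called in the other direction, JAG1 with the largest change of the 9 genes tested, and HES1 and HEYL were lower. Set against imatinib directly, siERRα had less NOTCH2, NOTCH3 and JAG2 and more JAG1, HES1, HEY1 and HEYL. NOTCH1 and HES4 were called in none of the 3 comparisons, and HEY2 had no count in any library. Of the 10 genes, 9 passed the filter on low counts. Between siERRα and siNC, 3 of these 9 (33.3%) were called lower and 1 (11.1%) higher, where 12.6% of all genes tested were lower and 11.4% higher. Between siNC + imatinib and siNC, 3 (33.3%) were called lower and 3 (33.3%) higher, against 20.3% and 21.4% of all genes. Between siERRα and siNC + imatinib, 3 (33.3%) were lower and 4 (44.4%) higher, against 26.6% and 25.6%. With 9 genes, 1 call more or less moves such a share by 11.1 percentage points. The comparisons share libraries and are not independent of each other.

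**Figure D2:**
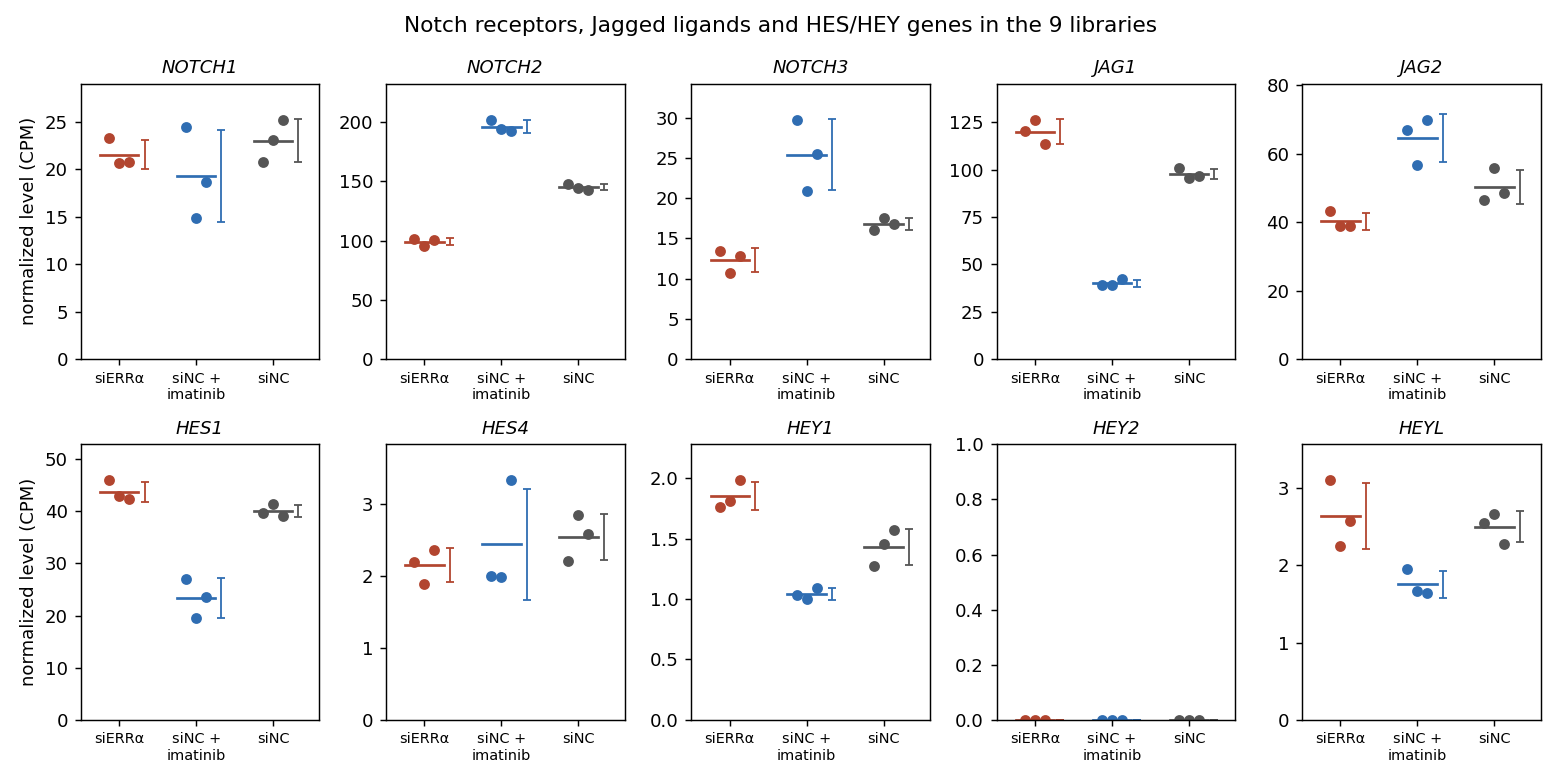
Normalized levels (CPM, linear axes from 0) of the 10 genes, with a point for each of the 9 libraries, a line at the group mean and a bar for the SD, siERRα at the left, siNC + imatinib in the middle and siNC at the right. NOTCH2, NOTCH3 and JAG2 order the groups as siNC + imatinib, siNC, siERRα from high to low without overlap. JAG1, HES1 and HEY1 order them the other way, also without overlap. Of these, HES1 in siERRα and HEY1 in both groups were not called against siNC. HEY2 lies at 0 in all 9.

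NOTCH2, on chromosome 1 of GRCh38 from 119911553 to 120100779, encodes the receptor with the highest level in these cells. It stood at 101, 95.7 and 100.2 CPM in the siERRα libraries, at 202, 194 and 192 CPM in the siNC + imatinib libraries and at 148, 145 and 143 CPM in the siNC libraries. No 2 groups overlapped, and the libraries of a group lay close together. The mean of 99.0 ± 2.94 CPM in siERRα against 145 ± 2.45 CPM in siNC (SD, n = 3 each) was a log2 fold change of −0.55 (SE 0.0526, adjusted p = 3.45e-07 from edgeR). With imatinib, the mean of 196 ± 5.21 CPM (SD, n = 3) was a log2 fold change of 0.44 against siNC (SE 0.0522, adjusted p = 1.92e-06 from edgeR). The direct comparison gave siERRα 0.505 times the imatinib level (log2 fold change −0.99, adjusted p = 2.55e-11 from edgeR). NOTCH2 is named in the study of these libraries, so it was not picked independently of them.

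Human genomes carry partial copies of NOTCH2 that may share reads with it. NOTCH2NLA, NOTCH2NLB, NOTCH2NLC and NOTCH2NLR had 3 to 27 counts per library each, where NOTCH2 had 3894 to 7456. The copies took 0.790 to 1.39% of the summed counts of NOTCH2 and its copies in siERRα, 0.442 to 0.481% in siNC + imatinib and 0.699 to 1.06% in siNC. None of the 3 copies that passed the filter was called in any comparison (NOTCH2NLR did not pass), with 0 calls at an unadjusted p under 0.05 as well. How reads shared with the copies were counted is not given in the sources used here.

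NOTCH3, on chromosome 19 from 15159038 to 15200995, is best known as the receptor of vascular smooth muscle and pericytes. Its level was 13.5, 10.7 and 12.8 CPM in siERRα, 29.8, 20.9 and 25.5 CPM in siNC + imatinib and 16.1, 17.6 and 16.8 CPM in siNC. The 3 groups did not overlap, though the imatinib libraries spread more widely than the others. The means were 12.3 ± 1.45 CPM in siERRα and 16.8 ± 0.727 CPM in siNC (n = 3 each, ± SD), which is −0.45 on the log2 scale (SE 0.111, adjusted p = 0.00582 from edgeR). With imatinib the mean was 25.4 ± 4.44 CPM (SD, n = 3), a log2 fold change of 0.60 against siNC (SE 0.108, adjusted p = 0.000199 from edgeR). In the direct comparison siERRα had 0.485 times the imatinib level (log2 fold change −1.05, adjusted p = 2.07e-07 from edgeR).

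NOTCH1, on chromosome 9 from 136494433 to 136546048, behaved otherwise. It stood at 23.3, 20.7 and 20.7 CPM in siERRα, at 24.5, 14.9 and 18.7 CPM in siNC + imatinib and at 20.7, 23.1 and 25.3 CPM in siNC. All 3 groups overlapped. The log2 fold change was −0.10 for siERRα against siNC (SE 0.132, adjusted p = 0.666 from edgeR) and −0.25 for siNC + imatinib against siNC (SE 0.134, adjusted p = 0.151 from edgeR). The imatinib value depended on library S16, the highest of its group. Without it the log2 fold change was −0.46 (adjusted p = 0.00366 from edgeR), and with no filter on low counts the value of −0.26 passed as well (adjusted p = 0.0157 from edgeR).

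NOTCH4, the remaining receptor gene, had 10 to 21 counts per library and was not called in any comparison. Divided by the length of their merged exons, the 4 receptor genes summed to 8.52 to 9.37 CPM per kb in siERRα, 15.04 to 17.2 CPM per kb in siNC + imatinib and 12.2 to 12.4 CPM per kb in siNC, with no overlap. NOTCH2 made up most of this sum in every library, 64.5 to 67.0% in siERRα, 70.0 to 77.1% in siNC + imatinib and 69.1 to 72.2% in siNC. The share of NOTCH1 was 18.3 to 19.9% in siERRα, 7.91 to 11.4% in siNC + imatinib and 13.5 to 16.3% in siNC, so that its groups did not overlap although its own level did.

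JAG1, on chromosome 20 from 10637684 to 10673999, encodes a ligand that activates Notch receptors on adjacent cells. It was at 120.3, 126 and 114 CPM in siERRα, at 38.9, 39.1 and 42.2 CPM in siNC + imatinib and at 101, 95.7 and 96.9 CPM in siNC. The groups did not overlap, and the imatinib libraries lay far below both others. The mean of 120.2 ± 6.37 CPM in siERRα against 97.8 ± 2.69 CPM in siNC (SD, n = 3 each) was a log2 fold change of 0.30 (SE 0.0592, adjusted p = 0.00106 from edgeR). With imatinib JAG1 fell to 40.1 ± 1.85 CPM (SD, n = 3), 0.409 times the siNC level (log2 fold change −1.29, SE 0.0618, adjusted p = 1.45e-11 from edgeR). Set directly against siNC + imatinib, siERRα had 3.00-fold more (1.59 on the log2 scale, edgeR adjusted p = 4.2e-13).

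JAG2, on chromosome 14 from 105140982 to 105168824, encodes the other Jagged ligand. Its level was 43.1, 38.9 and 38.7 CPM in siERRα, 67.0, 56.6 and 70.0 CPM in siNC + imatinib and 46.4, 55.7 and 48.6 CPM in siNC. The order of the groups was that of NOTCH2 and NOTCH3, without overlap but with narrower gaps. The means of 40.2 ± 2.51 CPM in siERRα and 50.2 ± 4.84 CPM in siNC (SD, n = 3 each) gave a log2 fold change of −0.32 (SE 0.084, adjusted p = 0.00878 from edgeR). With imatinib the mean was 64.5 ± 7.02 CPM (SD, n = 3), a log2 fold change of 0.36 against siNC (SE 0.0834, adjusted p = 0.00174 from edgeR). The direct comparison of siERRα with siNC + imatinib gave −0.68 on the log2 scale (adjusted p = 1.52e-06 from edgeR).

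The 2 ligands thus moved apart. The ratio of JAG1 to JAG2, each per kb of exon, was 1.92, 2.24 and 2.02 in siERRα, 0.3996, 0.475 and 0.415 in siNC + imatinib and 1.495, 1.18 and 1.37 in siNC. JAG1 was above JAG2 in every siERRα and siNC library and below it in every imatinib library. An exact two-sided permutation test of the ratio gave p = 0.1 in each of the 3 comparisons, the smallest that 3 against 3 libraries allow, and 0.1 after adjustment over the 3. The sum of both ligands was 18.3 to 19.7 CPM per kb in siERRα and 18.02 to 19.01 CPM per kb in siNC, which overlapped, and 13.1 to 15.5 CPM per kb in siNC + imatinib. An antisense noncoding gene that overlaps 306 exon bases of JAG1 had 0 to 3 counts per library, and a noncoding gene that overlaps 469 exon bases of JAG2 had 0 in all.

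**Figure D3:**
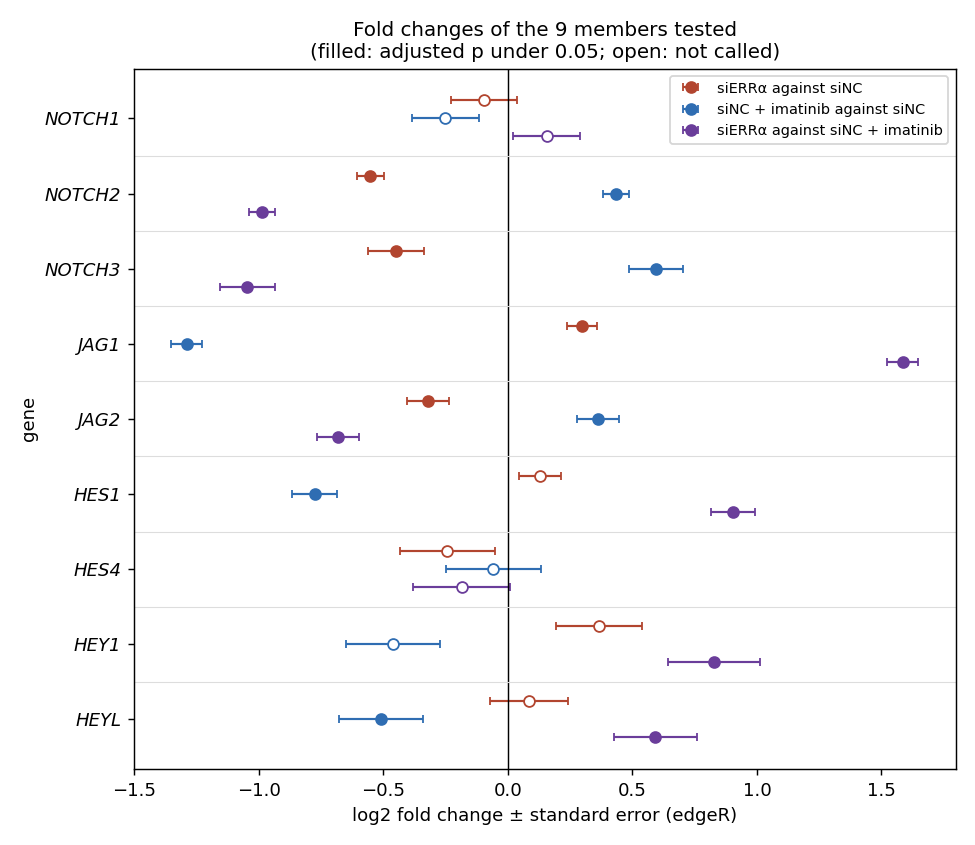
Log2 fold changes with their standard errors from edgeR for the 9 genes tested, siERRα against siNC (red), siNC + imatinib against siNC (blue) and siERRα against siNC + imatinib (purple). Filled points passed an adjusted p of 0.05, and NOTCH2, NOTCH3, JAG1 and JAG2 have filled points in all 3 comparisons.

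HES1, on chromosome 3 from 194136148 to 194138732, encodes the best known target of Notch, a repressor whose promoter window with its pair of cores is shown above. It stood at 45.9, 43.0 and 42.3 CPM in siERRα, at 27.1, 19.5 and 23.5 CPM in siNC + imatinib and at 39.7, 41.3 and 39.0 CPM in siNC. Each siERRα library was above each siNC library by a narrow gap, and the imatinib libraries lay well below both. The mean with imatinib was 23.4 ± 3.76 CPM against 40.0 ± 1.17 CPM in siNC (n = 3 each, ± SD), which is −0.78 on the log2 scale (SE 0.0892, adjusted p = 1.16e-06 from edgeR). For siERRα the mean of 43.7 ± 1.93 CPM (SD, n = 3) gave a log2 fold change of 0.13 against siNC (SE 0.086, adjusted p = 0.313 from edgeR), which did not pass. Against siNC + imatinib, siERRα had 1.87 times the level (log2 fold change 0.90, adjusted p = 8.01e-08 from edgeR).

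HEYL, on chromosome 1 from 39623435 to 39639643, encodes a repressor of the HEY family and was present at 60 to 148 counts per library. Its level was 3.10, 2.25 and 2.57 CPM in siERRα, 1.95, 1.67 and 1.64 CPM in siNC + imatinib and 2.55, 2.67 and 2.28 CPM in siNC. The imatinib libraries were below all others, while siERRα and siNC overlapped. The means of 1.75 ± 0.172 CPM with imatinib and 2.50 ± 0.199 CPM in siNC (SD, n = 3 each) gave a log2 fold change of −0.51 (SE 0.168, adjusted p = 0.0206 from edgeR). This call was lost without S17, S18, S1 or S2 (adjusted p = 0.0654, 0.073, 0.0575 and 0.0646 from edgeR, with log2 fold changes of −0.49 to −0.46). The log2 fold change was 0.08 for siERRα against siNC (adjusted p = 0.758 from edgeR) and 0.59 for siERRα against siNC + imatinib (adjusted p = 0.00578 from edgeR).

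HEY1, on chromosome 8 from 79762371 to 79767857, encodes another repressor of that family and had 37 to 86 counts per library. It was at 1.76, 1.81 and 1.98 CPM in siERRα, at 1.03, 0.997 and 1.09 CPM in siNC + imatinib and at 1.28, 1.45 and 1.57 CPM in siNC. The groups did not overlap, in the order of JAG1. Neither comparison with siNC passed, at a log2 fold change of 0.37 for siERRα (SE 0.172, adjusted p = 0.139 from edgeR) and −0.46 for siNC + imatinib (SE 0.189, adjusted p = 0.0578 from edgeR). The imatinib value passed when only genes that reached 10 counts throughout were tested (edgeR adjusted p = 0.0491). Set against each other, siERRα had 1.77 times the level of siNC + imatinib (log2 fold change 0.83, SE 0.184, adjusted p = 0.000893 from edgeR).

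HES4, on chromosome 1 from 998962 to 1000172, encodes a relative of HES1. It stood at 2.20, 1.89 and 2.37 CPM in siERRα, at 2.01, 1.99 and 3.33 CPM in siNC + imatinib and at 2.22, 2.85 and 2.58 CPM in siNC. All groups overlapped, and 1 imatinib library, S18, was above every other library. At 74 to 130 counts per library, no difference was detectable (log2 fold changes of −0.24, −0.06 and −0.19 in the 3 comparisons, adjusted p = 0.4002, 0.838 and 0.448 from edgeR). HEY2, on chromosome 6 from 125747664 to 125761269 and known from the heart and arteries, had 0 counts in all 9 libraries. A count of 0 allows up to 3 counts, or 0.0595 to 0.0820 CPM in these libraries, for counting error only. Its promoter window holds 2 RBPJ cores, as do those of HES1 and HEYL, which were detected.

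Per kb of exon, which allows genes to be set beside each other, HES1 was the highest of the 10 genes in siERRα (21.2 ± 0.938 CPM per kb, SD, n = 3) and in siNC (19.4 ± 0.566), followed by JAG1 at 12.9 ± 0.685 and 10.5 ± 0.290. In siNC + imatinib NOTCH2 (11.7 ± 0.311 CPM per kb, SD, n = 3), HES1 (11.3 ± 1.83) and JAG2 (10.1 ± 1.10) came before JAG1 (4.31 ± 0.199). Of these, NOTCH2 and HES1 overlapped with imatinib, as did HES1 and JAG2. NOTCH2 and JAG2 overlapped in siNC, and in siERRα JAG2 was above NOTCH2 at 6.29 ± 0.393 and 5.91 ± 0.176. This narrow order depends on merged exons of 6396 bases for JAG2 and 16744 bases for NOTCH2, which may exceed the lengths of their transcripts. Before division by length, JAG2 was at 40.2 CPM and NOTCH2 at 99.0 CPM in siERRα. A second tier held HES4, NOTCH1 and NOTCH3, between 1.31 and 2.701 CPM per kb in the group means. Within it HES4 overlapped NOTCH1 in all 3 groups, NOTCH1 overlapped NOTCH3 in siNC and NOTCH3 overlapped HES4 in siNC + imatinib. HEYL (0.430 to 0.648 CPM per kb) and HEY1 (0.190 to 0.337) followed without overlap with their neighbors, and HEY2 was last. The merged exons of HEY1 cover every base from its start to its end (5487 bases). Its value per kb and its distance below HEYL depend on that length, which may exceed that of its transcripts, and so does its part in the HES and HEY sum. Of the summed level of HES1, HES4, HEY1, HEY2 and HEYL, HES1 made up 86.9 to 89.0% in siERRα, 76.1 to 84.2% in siNC + imatinib and 85.3 to 87.2% in siNC. This sum leaves out the HES genes outside the 10, and with them the share of HES1 would be lower. Among those, HES6 stood at 10.7 ± 0.77 CPM per kb in siERRα, 11.6 ± 0.86 in siNC + imatinib and 9.52 ± 0.92 in siNC (SD, n = 3 each).

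**Figure D4:**
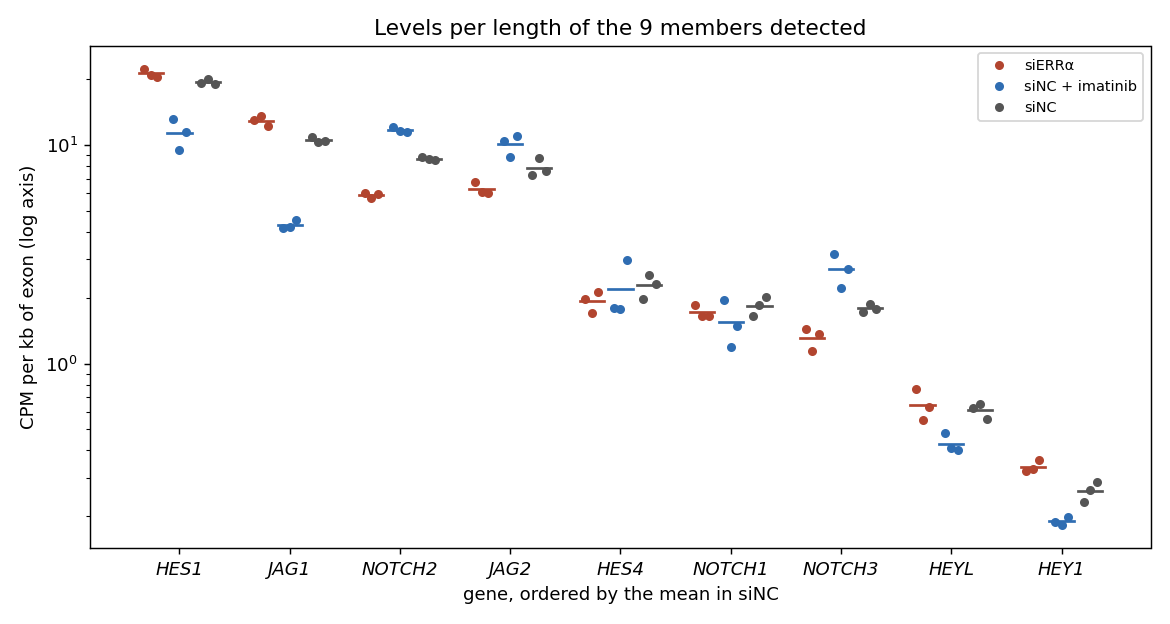
Levels per length (CPM per kb of merged exons, log axis) of the 9 genes detected, with points for libraries and lines for group means, siERRα (red), siNC + imatinib (blue) and siNC (gray) from left to right for each gene. HES1 and JAG1 lead in siERRα and siNC, NOTCH2, HES1 and JAG2 lead in siNC + imatinib, and HEY2, at 0, is not drawn.

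Outside the 10 genes, the pathway was read from 62 further genes in 9 lists by role, of which 55 were tested. Each list held 3 to 10 tested genes. The counts by list below are a description, to be read against the shares of all genes given here. In siERRα against siNC, 8 (14.5%) were called lower and 9 (16.4%) higher, where 12.6% and 11.4% of all genes were, with a median log2 fold change of 0.03 where that of all genes was 0.01. Between siNC + imatinib and siNC, 10 (18.2%) were lower and 16 (29.1%) higher, against 20.3% and 21.4% of all genes (median 0.02, against 0.00), and between siERRα and siNC + imatinib 16 (29.1%) were lower and 16 (29.1%) higher, against 26.6% and 25.6% (median −0.05, against 0.00).

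Among the other receptors and ligands, with 6 of 7 genes tested, both siERRα and siNC + imatinib had 2 genes lower than siNC and none higher. The Delta ligand gene DLL4 was at 3.44 ± 0.152 CPM in siERRα, 2.77 ± 0.425 CPM in siNC + imatinib and 5.98 ± 0.464 CPM in siNC (SD, n = 3 each). It was the only ligand or receptor gene tested, members included, to be called lower in both comparisons with siNC (log2 fold changes −0.80 and −1.11, adjusted p = 0.000106 and 1.68e-06 from edgeR), and siERRα and imatinib were not called apart (0.31, adjusted p = 0.0666 from edgeR). DLL1, another Delta ligand gene, was at 2.33 ± 0.364, 1.23 ± 0.143 and 2.38 ± 0.152 CPM in these groups (SD, n = 3 each) and was lower with imatinib than in siNC (−0.95, adjusted p = 0.000261 from edgeR), with siERRα above imatinib (0.93, adjusted p = 0.000223 from edgeR). The noncanonical ligand gene DLK2 was lower in siERRα, at 1.17 ± 0.214 CPM against 2.37 ± 0.381 CPM in siNC (SD, n = 3 each), with −1.02 on the log2 scale (edgeR adjusted p = 0.00153). JAG1 made up 60.1 to 64.1% of the summed Jagged and Delta level per kb in siERRα, 26.4 to 29.3% in siNC + imatinib and 48.2 to 53.3% in siNC.

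Of the 5 genes tested that glycosylate or mature the receptor, 1 was higher in siERRα than in siNC and 3 were higher with imatinib, with none lower. FURIN, the convertase that cuts the receptor precursor, had log2 fold changes of 0.21 in siERRα (adjusted p = 0.0197 from edgeR, lost without S4, S6, S1 or S3, at up to 0.105) and 0.51 with imatinib (adjusted p = 2.46e-06). POFUT1, which adds the O-fucose that receptors need for ligand binding, rose by 0.35 with imatinib, and the Fringe gene RFNG by 0.28 (lost without S18 or S1, adjusted p = 0.117 and 0.0814 from edgeR). In siERRα against siNC, LFNG (−0.56) and POGLUT1 (0.11) did not pass. Against siNC + imatinib, siERRα had 4 of them lower and 1 higher, with POFUT1 at −0.40, FURIN at −0.30 and RFNG at −0.33.

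All 8 genes for receptor cleavage were tested. In siERRα 3 were higher than in siNC and none lower, and 1 of these 3 calls was lost in 10 of 16 alternatives. ADAM17, a protease that sheds the receptor ectodomain, was at 75.3 ± 3.82 CPM in siERRα, 35.6 ± 0.259 CPM in siNC + imatinib and 52.6 ± 2.84 CPM in siNC (SD, n = 3 each). It was higher in siERRα (log2 fold change 0.52, adjusted p = 6.44e-06 from edgeR) and lower with imatinib (−0.56, adjusted p = 1.04e-06 from edgeR), the directions of JAG1. ADAM10, the main protease of ligand-induced shedding, rose by 0.38 in siERRα (adjusted p = 0.000402 from edgeR) and was at −0.12 on the log2 scale with imatinib (edgeR adjusted p = 0.178). NCSTN, a γ-secretase subunit, was higher with imatinib (0.46, adjusted p = 9.14e-07 from edgeR). For siERRα against siNC + imatinib, 1 was lower (NCSTN, −0.45) and 3 were higher, ADAM17 by 1.08 and ADAM10 by 0.50 among them.

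The 4 ubiquitin ligases that drive endocytosis of bound ligands all passed the filter. None was called in siERRα against siNC (MIB2 −0.31, NEURL1 0.31 and MIB1 −0.15), and all 4 were called higher with imatinib, where 21.4% of all genes were, led by NEURL1B (0.64, adjusted p = 2.66e-08 from edgeR) and MIB2 (0.60, adjusted p = 0.000257 from edgeR). MIB1, named after its values were seen, was at 0.18 (adjusted p = 0.0484 from edgeR), and its groups overlapped. Its call was lost in 10 of 16 alternatives (log2 fold changes of 0.12 to 0.17 in these, adjusted p up to 0.188). The call of NEURL1 (0.38, adjusted p = 0.0312 from edgeR) was lost without S16, S18, S1 or S3, at adjusted p up to 0.157. In siERRα against siNC + imatinib, NEURL1B (−0.66), MIB2 (−0.91) and MIB1 (−0.32) were lower.

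RBPJ, on which the nuclear complex is built, was at 74.8 ± 4.48 CPM in siERRα, 97.2 ± 6.57 CPM in siNC + imatinib and 88.1 ± 3.93 CPM in siNC (SD, n = 3 each). Its log2 fold change of −0.24 in siERRα passed (adjusted p = 0.0115 from edgeR, lost without S4 or S1 at 0.0685 and 0.0653), and that of 0.14 with imatinib did not (adjusted p = 0.0916 from edgeR). The coactivator gene MAML1 was higher in siERRα (0.57, adjusted p = 1.66e-06 from edgeR) and, by less, with imatinib (0.19, adjusted p = 0.0187 from edgeR, lost without S16 or S1 at 0.106 and 0.0981). EP300, a histone acetyltransferase, was at 0.32 in siERRα (edgeR adjusted p = 0.0331), which failed when S4, S5, S6, S1, S2 or S3 was left out (adjusted p up to 0.165). With imatinib MAML3, at 7 to 33 counts per library, was higher (1.48, adjusted p = 0.00556 from edgeR), SNW1 was lower (−0.28, adjusted p = 0.0032 from edgeR) and MAML2 was lower (−0.32, adjusted p = 0.00988 from edgeR, lost without S17, S18 or S3 at up to 0.0619). Of the 7 genes, 1 was lower and 2 higher in siERRα, 2 lower and 2 higher with imatinib, and 2 lower and 4 higher between siERRα and imatinib, MAML1 (0.38), MAML2 (0.53), SNW1 (0.31) and EP300 (0.29) above RBPJ (−0.38) and MAML3 (−1.10). In that comparison the calls of MAML3 and EP300 were lost as well, for MAML3 without S4 or S16 (adjusted p up to 0.104) and for EP300 without S4, S5, S6, S17, S18 or S2 (up to 0.154) and with only the 6 libraries compared (0.28, adjusted p = 0.0742 from edgeR). Its groups overlapped there, and leaving out 1 library moved its log2 fold change between 0.19 (without S17) and 0.47 (without S16).

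The corepressor list, 9 of 9 tested, had 3 lower and 2 higher in siERRα and 1 lower and 4 higher with imatinib. The Groucho gene TLE2 was lower in siERRα (−0.39, adjusted p = 0.0125 from edgeR, 0.0544 without S2) and higher with imatinib (0.78, adjusted p = 6.9e-06 from edgeR). TLE1 was higher in siERRα (0.35, adjusted p = 0.00115 from edgeR) and CTBP2 lower (−0.24, adjusted p = 0.00878 from edgeR). With imatinib TLE4 was higher (0.35, adjusted p = 0.000181 from edgeR). Set against siNC + imatinib, siERRα had 4 lower and 2 higher, with TLE2 at −1.17, CTBP2 at −0.44 and TLE1 at 0.53.

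Of the 10 genes tested for receptor trafficking and turnover, 2 were lower and 1 higher in siERRα, and 4 lower and 1 higher with imatinib. DTX4, a Deltex ubiquitin ligase, followed the pattern of NOTCH2, at 35.0 ± 1.199 CPM in siERRα, 67.0 ± 1.79 CPM in siNC + imatinib and 50.4 ± 1.28 CPM in siNC (SD, n = 3 each), with log2 fold changes of −0.53 and 0.41 against siNC (adjusted p = 3.46e-06 and 1.85e-05 from edgeR). The ubiquitin ligase gene NEDD4 was lower in both (−0.40 and −0.28, adjusted p = 0.00108 and 0.00852 from edgeR). CDK8, which phosphorylates the intracellular domain, was lower with imatinib (−0.36, adjusted p = 4.32e-05 from edgeR), and NUMB, an inhibitor of Notch, was at 0.21 in siERRα with an adjusted p of 0.0287 from edgeR that was lost in 7 of 16 alternatives, among them those without S4, S6, S1, S2 or S3 (up to 0.122). Against siNC + imatinib, in siERRα 1 was lower (DTX4, −0.94) and 5 higher, CDK8 by 0.37 and NUMB by 0.40 among them.

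Among the other HES genes and NRARP, a feedback inhibitor and target of Notch, HES5 was at 0 counts in all libraries and HES2 and HES3 had at most 1 count. HES6, known from mouse to act against HES1, was higher with imatinib (22.7 ± 1.67 CPM against 18.6 ± 1.79 CPM in siNC, SD, n = 3 each, 0.29 on the log2 scale, edgeR adjusted p = 0.0116, lost without S18, S1 or S3 at up to 0.0833). No other call was made in this list. NRARP was at 2.50 ± 0.264 CPM in siERRα, 2.04 ± 0.696 CPM in siNC + imatinib and 2.47 ± 0.268 CPM in siNC (SD, n = 3 each), and its groups overlapped.

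**Figure D5:**
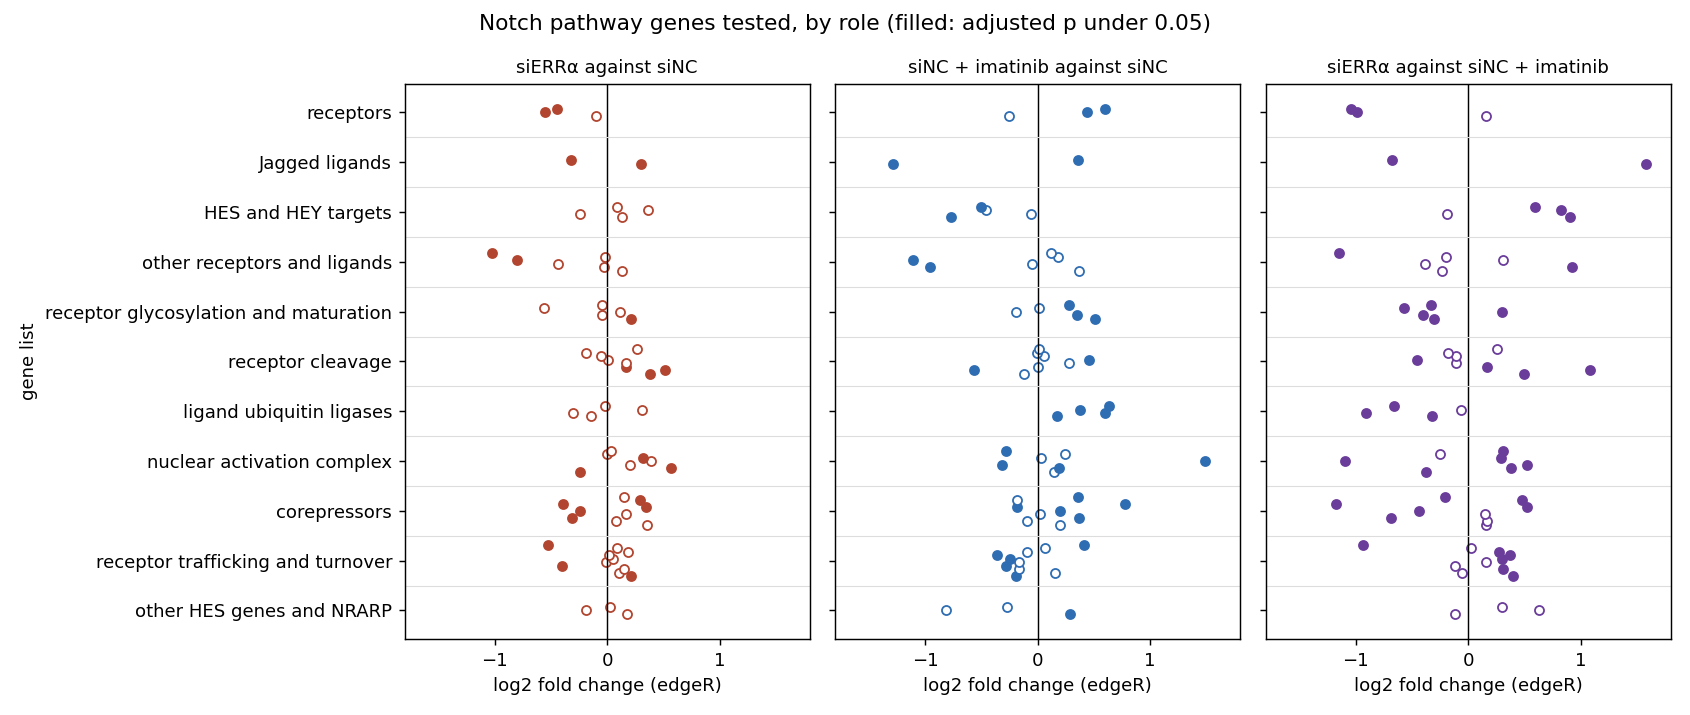
Log2 fold changes from edgeR of the pathway genes tested, by role (rows), for siERRα against siNC (left), siNC + imatinib against siNC (middle) and siERRα against siNC + imatinib (right), each point a gene and filled points passing an adjusted p of 0.05. All 4 ligand ubiquitin ligases are called higher with imatinib, MIB1 with a call that 10 of 16 alternatives lost, and each list has genes on both sides of 0 in at least 1 comparison.

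The receptor, ligand and target gene with the widest range of group means on the log2 CPM scale were NOTCH3 (1.03), JAG1 (1.58) and HES1 (0.91), and the protein-coding genes most like them were sought over the 9 libraries among 11609 others with an average of at least 1 CPM. Their Pearson correlations are a description, since the 9 points fall into 3 groups that are shared by every gene. NOTCH3 was most like ARHGEF17 (r = 0.994), KRBA1 (0.993) and the protocadherin gene DCHS1 (0.987). JAG1 was most like TPM3, a tropomyosin gene, HMGA2, a chromatin protein gene, and SNX18, a sorting nexin gene (r = 0.998, 0.998 and 0.997). HES1 was most like the netrin receptor gene UNC5B (0.994), the co-chaperone gene BAG3 (0.991) and the integrin gene ITGA5 (0.991). HMGA2, for example, averaged 482 CPM in siERRα, 217 CPM in siNC + imatinib and 430.1 CPM in siNC. Such likeness was common, since 162, 622 and 225 genes had r above 0.95 with NOTCH3, JAG1 and HES1.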

How the data were processed

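PolyA RNA of GIST-T1 cells was sequenced in 9 libraries, 3 each of siERRα, siNC + imatinib and siNC. By the submitters' processing notes, STAR 2.7.3a (build GRCh38) and featureCounts 2.0.1 produced the values that the authors deposited, which are raw counts for each gene symbol. Which annotation and strand setting they used, and how shared reads were treated, is not stated in the sources used here.

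Groups came from the labels. The S number shared by labels and columns names each library, and library numbers within groups were given in accession order. Groups were compared with edgeR 4.0.16 in R 4.3.3 (glmQLFit and glmQLFTest, robust) with TMM and filterByExpr (minimum count 10, minimum total 15), over 16976 genes. SEs are log2 fold changes divided by the root of F. Ratios were compared by exact permutation in scipy 1.17.1. Positions and exon lengths are from GENCODE 44, promoters from RefSeq. A value of 3 counts was taken as the limit that a count of 0 allows.

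The members and gene lists were chosen with earlier results of these data known. Named were ESRRA, all 10 members, the NOTCH2 copies, every called gene of the receptor and ligand, nuclear complex and other HES lists, the 3 smallest p in each other list, and the 3 genes most like the widest-ranging receptor, ligand and target. The results of 2 genes that this rule takes are not reported here. Alternatives were DESeq2 1.42.0 size factors and Wald test, limma-voom (limma 3.58.1), no filter, at least 10 counts in every library, only the 6 libraries compared, a replicate block and each library left out. Applying them to ESRRA and the pathway genes was chosen after seeing the data. On simulated data over 16976 genes edgeR recovered 59 of 100 genes changed by 0.5 and 81 of 100 changed by 1 on the log2 scale for siERRα, and 66 and 71 of 100 for imatinib, with 9 and 6 false calls. In each simulation 16776 genes were left unchanged, so the numbers recovered need not hold for these comparisons, in which many more genes were called. A second deposited table, which only lists group labels, was left out.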

Additional observations from a re-analysis of the deposited data

How the results depend on the processing

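Between siERRα and siNC, 4 of the 9 Notch genes tested were called under all 16 alternatives. In the main fit 12.6% of all genes were lower there and 11.4% higher. Between siNC + imatinib and siNC the main count of 6 ranged from 5 to 7, and between siERRα and siNC + imatinib that of 7 from 7 to 8. Of all genes, 20.3% were lower and 21.4% higher in the former and 26.6% and 25.6% in the latter. The calls of NOTCH2, NOTCH3, JAG1 and JAG2 kept their direction and passed under every alternative in all 3 comparisons, as did HES1 in both comparisons with imatinib. Among values that were not called, 4 changed sign when 1 library was left out. HEYL in siERRα against siNC then ranged from −0.052 (without S4) to 0.19, and HES4 with imatinib against siNC from −0.35 to 0.069 (above 0 without S16, S17 or S2). Between siERRα and imatinib, NOTCH1 ranged from −0.0075 (without S17) to 0.36 and HES4 from −0.32 to 0.099 (without S18). NOTCH1 was also called between siERRα and imatinib without S16 (0.36, adjusted p = 0.0132 from edgeR). The counts of all genes called ranged from 2910 to 4401, 5794 to 7780 and 8203 to 8934, all within 1.5 times the main counts. Deviations of same-numbered libraries of different groups correlated at −0.0996 to 0.147, and those of differently numbered libraries at −0.133 to 0.0926. These ranges overlap, and with 3 libraries per group they do not settle whether the numbers pair libraries. The replicate block changed no call of a member and called 3652, 6764 and 8612 genes. The calls of NUMB in siERRα and of MIB1 with imatinib were lost with the block. HES4, HEY1 and HEYL had 37 to 148 counts per library, and a difference that was not called in them may not have been detectable at this depth.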
